A study of Mus musculus with 6 samples.

Results

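Transcription factors of head muscle progenitors were examined in tissue around the inner ear of mouse embryos at embryonic day 11.5, with and without Tbx1 in mesoderm. The set held 8 genes chosen by name, Myf5, Myf6, Myod1, Myog, Msc, Tcf21, Lhx2 and Mef2c, and every probe set annotated to them on the array was taken. This gave 14 probe sets of 34945 with 1 gene symbol, and 8 genes of 18193. Each array held RNA of a pool of 3 embryos, left and right ears together, and there were 3 arrays of each genotype. Mest-KO pools were conditional Tbx1 knockouts made with T-Cre, and control pools were T-Cre conditional Tbx1 heterozygotes. Both groups therefore carried the Cre, and controls lacked 1 working copy of Tbx1 where it acts. T-Cre takes its activity from the Brachyury gene, which is on in newly formed mesoderm, so epithelium of the otic vesicle, which comes from ectoderm, should keep Tbx1.

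Skeletal muscles of the jaw, face and throat come from mesoderm of the head and pharyngeal arches, not from somites. There, Tbx1 and the related bHLH factors Msc (musculin) and Tcf21 (capsulin) act early, together with the LIM homeobox factor Lhx2, and the myogenic regulatory factors Myf5, Myod1 and Myf6 then commit cells to muscle. Myog drives differentiation into fibres, and Mef2c, a MADS-box factor, works with the myogenic factors on muscle genes. Tcf21, Lhx2 and Mef2c are also made outside muscle lineages, Mef2c for example in endothelium, neural crest and neurons. The comparison asked whether these regulators differed in the otic and periotic region when mesoderm lacked Tbx1.

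None of the 8 regulators passed the threshold for a difference between genotypes. The factors of committed and differentiating muscle, Myf5, Myod1 and Myog, and the progenitor factor Tcf21 varied between pools of the same genotype by more than nearly all other genes. Their values lay above their own means in control 2 and Mest-KO 2 and below them in control 1 and Mest-KO 1. Tcf21 differed in part, being lowest among controls in control 3 and highest among Mest-KO pools in Mest-KO 3. Lhx2 had a lower mean in Mest-KO, and Msc and Mef2c had higher means, each by a difference too small for the spread between pools. Of the 8 genes, 0 passed (limma, adjusted p under 0.05), where 0.148% of the 14170 genes tested did, and 0 of 8 had an unadjusted p under 0.05, where 8.97% did. The median log2 difference of the 8 was -0.02, beside 0.01 over all genes tested.

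Start-site sequences are shown for Myog, Myf5 and Tcf21, because these members, with Myod1, lay on the same side of their own means on each of the 6 arrays. They are the 250 bases before and 50 after the transcription start from RefSeq (GRCm38.p6), in which 5 of the 8 members were matched. Capitals mark E-boxes, CANNTG, the letters that bHLH factors such as Myod1, Myog, Msc and Tcf21 recognise.
Myog, chr1:134289754-134290053, plus strand: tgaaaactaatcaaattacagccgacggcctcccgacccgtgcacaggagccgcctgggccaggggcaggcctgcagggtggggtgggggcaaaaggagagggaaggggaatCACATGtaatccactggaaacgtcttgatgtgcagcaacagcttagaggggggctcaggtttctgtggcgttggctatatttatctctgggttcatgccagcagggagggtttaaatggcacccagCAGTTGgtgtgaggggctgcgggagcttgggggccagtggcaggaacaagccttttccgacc
Myf5, chr10:107486085-107486384, minus strand: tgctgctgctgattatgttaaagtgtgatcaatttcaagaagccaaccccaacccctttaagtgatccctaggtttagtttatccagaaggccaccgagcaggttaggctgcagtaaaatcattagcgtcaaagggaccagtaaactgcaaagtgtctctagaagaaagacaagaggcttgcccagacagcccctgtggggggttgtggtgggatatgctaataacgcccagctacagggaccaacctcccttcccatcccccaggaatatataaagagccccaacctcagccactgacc
Tcf21, chr10:22820094-22820393, minus strand: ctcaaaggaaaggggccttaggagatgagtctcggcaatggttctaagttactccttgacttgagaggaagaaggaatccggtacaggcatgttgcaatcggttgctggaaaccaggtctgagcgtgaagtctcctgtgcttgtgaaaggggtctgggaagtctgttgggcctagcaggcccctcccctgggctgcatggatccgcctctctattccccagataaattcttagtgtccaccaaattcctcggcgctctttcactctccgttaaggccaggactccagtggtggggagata

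The Myog window held 2 E-boxes, CACATG starting at -138 and CAGTTG starting at -12 from the start site, and the windows of Myf5 and Tcf21 held 0. Of 32851 windows of the same length, 72.3% held an E-box. A loose core of the MEF2 motif, TANNNNTA, was found once in Myog, as TATATTTA starting at -63, once in Myf5, as TAGGTTTA starting at -181, and 0 times in Tcf21, against 37.3% of all windows. CAGCTG, an E-box form bound well by Myod1, was in 0 of the 3 windows and in 16.3% of all. TCACACCT, a core that T-box factors bind, was in 0 of the 3 and in 1.28% of all. Each motif was searched on both strands, E-boxes include CAGCTG, and no other overlap was removed.

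Values are intensities on a linear scale, scaled by the authors to a common level on each array. Tests used log2(intensity + 16), so a log2 difference understates the change of dim genes, and errors of log2 differences are standard errors of the fit. As a measure of background, 27 probe sets that match bacterial RNA were used, and the highest of their values was 11.2. The 6 arrays were alike, with correlations across genes of log2 values between 0.987 and 0.993. The dissected tissue was checked against markers. Oc90, made by otic epithelium, read 3075 in control and 3484 in Mest-KO on average, and Prrx1, made by mesenchyme, read 6047 and 6074. Of 15 tested otic epithelium markers, 8 were lower in Mest-KO, with a median log2 difference of -0.04. For periotic mesenchyme, 10 of 15 were lower, with a median of -0.09. Their sums were 33341 to 34229 in control and 30886 to 33081 in Mest-KO. For pharyngeal endoderm, 5 of 6 were lower, with a median of -0.84, and 1 passed, where 0.148% of all genes tested did. Tbx1 itself averaged 512.8 ± 61.1 in controls and 502.8 ± 85.4 without mesodermal Tbx1 (SD, n = 3 in each group, as for all means here), and its probe set is not known here to lie in the deleted part, so it does not check the labels. The log2 difference of Tbx1 was -0.03 ± 0.14 (limma, adjusted p = 0.967).

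**Figure D1:**
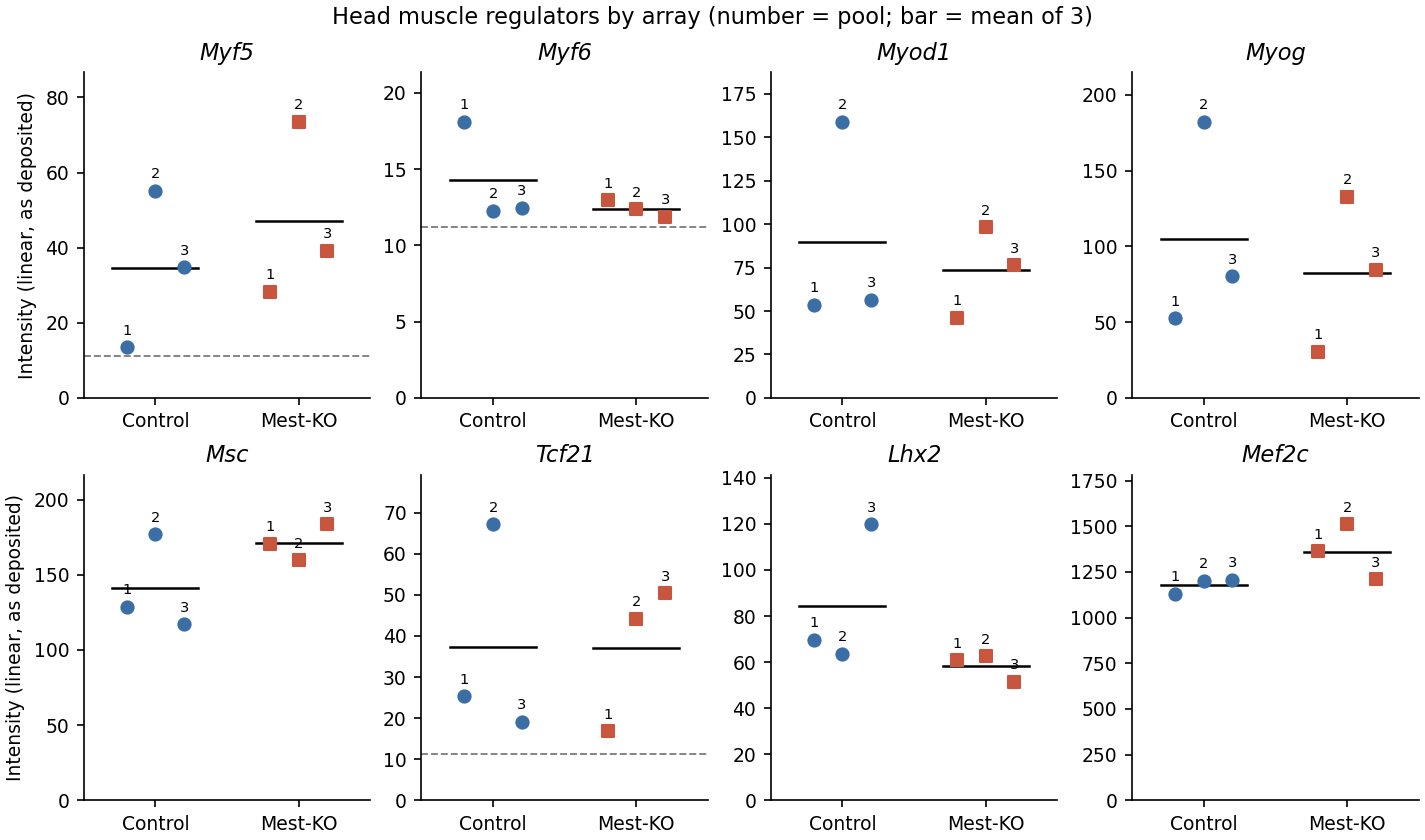
Intensity of each of the 8 regulators on a linear scale, with a point for each array, numbered by pool, and a bar for the mean of 3. The dashed line, drawn in panels with low values, is the highest bacterial control, 11.2. Control 2 is the highest control for Myf5, Myod1, Myog, Msc and Tcf21, and the groups do not overlap only for Lhx2 and Mef2c.

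Among the factors that commit cells to muscle, Myf5 read 13.4, 55.2 and 34.8 in control 1, 2 and 3, against 28.2, 73.5 and 39.2 in Mest-KO 1, 2 and 3. The groups overlapped, Mest-KO 2 was highest, and control 1 lay just above the bacterial controls. Myf5 averaged 34.5 ± 20.9 in control and 47.0 ± 23.6 in Mest-KO, a log2 difference of 0.35 ± 0.33 (95% interval -0.38 to 1.07; limma, adjusted p = 0.814; exact permutation p = 0.5, two-sided, where 3 against 3 cannot go below 0.1). On this scale the interval spans ratios of Mest-KO to control from 0.769 to 2.10.

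Myod1, the other main commitment factor, read 53.8, 158.9 and 56.6 in control 1, 2 and 3. In Mest-KO 1, 2 and 3 it read 46.2, 98.2 and 76.5. Control 2 stood far above the other controls and above all Mest-KO pools, and the groups overlapped. The means were 89.7 ± 59.9 and 73.6 ± 26.1, and the log2 difference was -0.14 ± 0.34 (95% interval -0.89 to 0.60; limma, adjusted p = 0.937). A second Myod1 probe set, named as one that may cross-hybridise, stayed at or below 10.1 on all arrays, under the bacterial controls, and gave no usable level.

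Myf6, which acts with Myf5 in commitment and later in fibres, was near background. It read 18.1, 12.3 and 12.5 in control 1, 2 and 3, against 13.0, 12.4 and 11.9 in Mest-KO. At these intensities a difference was not detectable, and the log2 difference of -0.09 ± 0.18 (limma, adjusted p = 0.924) carries little information.

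Myog, the differentiation factor, read 52.5, 182.0 and 80.2 in control 1, 2 and 3, against 30.6, 132.6 and 84.5 in Mest-KO 1, 2 and 3. Its highest array was 5.95 times its lowest, and both groups covered most of that range. The means were 104.9 ± 68.2 in control and 82.6 ± 51.0 in Mest-KO, with a log2 difference of -0.30 ± 0.43 (limma, adjusted p = 0.883; exact permutation p = 0.8). The 95% interval ran from -1.25 to 0.65 on the log2 scale, or ratios of Mest-KO to control from 0.420 to 1.56.

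The progenitor factors Msc and Tcf21 had different patterns over the pools. Msc read 128.6, 177.1 and 117.0 in control 1, 2 and 3, against 170.7, 159.8 and 183.7 in Mest-KO 1, 2 and 3. Control 1 and 3 lay below all Mest-KO pools and control 2 lay among them. Msc averaged 140.9 ± 31.9 in control and 171.4 ± 12.0 in Mest-KO, a log2 difference of 0.27 ± 0.16 (95% interval -0.09 to 0.63; limma, adjusted p = 0.659). Tcf21 read 25.3, 67.2 and 19.2 in control 1, 2 and 3, against 16.8, 44.2 and 50.4 in Mest-KO 1, 2 and 3, so that each group had both low and high pools. The Tcf21 means, 37.2 ± 26.2 and 37.1 ± 17.9, were nearly equal and the log2 difference was 0.04 ± 0.34 (limma, adjusted p = 0.985), yet its 95% interval reached from -0.71 to 0.79. The other Tcf21 probe set read at most 4.52 and gave no usable level.

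Lhx2, which marks early head muscle progenitors and is also made in neural tissue and other organs, had non-overlapping groups. It read 69.6, 63.7 and 119.9 in control 1, 2 and 3, against 60.7, 62.5 and 51.4 in Mest-KO 1, 2 and 3. Control 2 and Mest-KO 2 nearly met, and control 3 stood far above the other 5 arrays. The means were 84.4 ± 30.9 and 58.2 ± 5.96. The log2 difference was -0.40 ± 0.21 (95% interval -0.86 to 0.06; limma, adjusted p = 0.615). Without control 3 it was -0.16. Genes of the hindbrain neural tube, a tissue next to the otic vesicle, had lower means in Mest-KO too. Of 15 tested genes of that list, 13 were lower and 2 fell past the threshold, which 0.148% of all genes tested passed. Their median log2 difference was -1.09. The list's mean relative to the 6 arrays ran 0.79, -0.18 and 0.88 over control 1, 2 and 3. It was -0.55, -0.13 and -0.81 over the Mest-KO pools. With that mean as a covariate the Lhx2 difference was 0.02 ± 0.30. The mean itself differed between genotypes, so this fit cannot separate it from genotype. A part of hindbrain tissue in the Lhx2 values was not tested.

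Mef2c was bright on the array and had 5 probe sets. Its brightest read 1131, 1201 and 1206 in control 1, 2 and 3, against 1363, 1511 and 1209 in Mest-KO 1, 2 and 3. All Mest-KO values lay above all controls, but Mest-KO 3 nearly equalled control 3. The means were 1179 ± 41.8 and 1361 ± 151.2 and the log2 difference 0.20 ± 0.10 (95% interval -0.02 to 0.42; limma, adjusted p = 0.587). The other 4 probe sets did not share this separation. Their log2 differences were 0.11 ± 0.16, 0.09 ± 0.14, -0.04 ± 0.19 and -0.01 ± 0.20, and their groups overlapped, and over the mean of all 5 the difference was 0.07.

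Mef2c is made by cell types besides muscle, and their markers are given beside it. Of 12 endothelial markers, 11 were higher in Mest-KO and 0 passed, with a median of 0.09 and summed intensities of 5876 to 6290 in control and 6528 to 7080 in Mest-KO. Of 14 neuron markers, 13 were higher, 1 rose and the median was 0.16. Of 8 tested neural crest and glia markers, 6 were higher and 0 passed, with a median of 0.12 and sums of 12507 to 13384 in control and 14035 to 14227 in Mest-KO. Over all genes tested, 53.8% were higher and 0.148% passed. The part of these cell types in the Mef2c values was not tested.

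**Figure D2:**
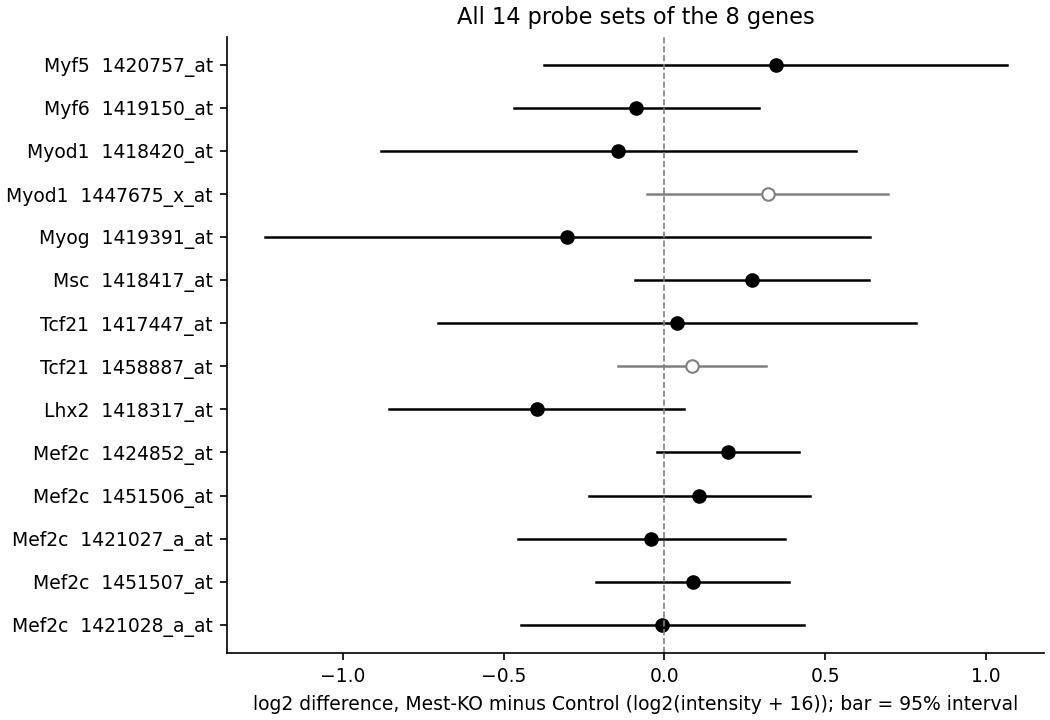
Difference between genotypes for all 14 probe sets of the 8 genes, on the log2(intensity + 16) scale, with 95% intervals from limma. Open symbols mark the 2 probe sets that did not pass the filter on low values. Every interval includes 0, and the widest is that of Myog.

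Read together, 4 of the 8 genes had a higher mean log2 level in Mest-KO and 4 a lower one, where 53.8% of all genes were higher. Groups did not overlap for 2 of the 8, Mef2c higher and Lhx2 lower, where 14.5% of all genes tested had non-overlapping groups, 9.32% higher and 5.22% lower. A count over 8 genes is too small to be set against that share. Among single probe sets, 12 of the 14 passed the filter, 0 were called and 0 had an unadjusted p under 0.05, where 0.0748% and 9.16% of the 26736 tested did. The groups of 2 of the 12 did not overlap, where 14.6% of all did, and these were the Lhx2 and Mef2c probe sets already named.

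The spread between pools of 1 genotype set how small a difference could be seen. It was largest for Myog, with a residual SD of 0.82 on the log2 scale, above 99.7% of all genes tested and above 98.3% of the 1373 genes within 0.5 of its mean log2 level. The residual SD was 0.62 for Myod1, 0.61 for Tcf21 and 0.58 for Myf5, each above 99.1% or more of all genes and above 97.2% or more of genes of like level. For genes near the level of Myog the median was 0.21. Lhx2, with 0.31, lay above 91.1% of all genes, and Msc, with 0.21, above 74.7%. Mef2c, with 0.12, and Myf6, with 0.11, lay below the middle of all genes. The small number of arrays limits the precision further.

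**Figure D3:**
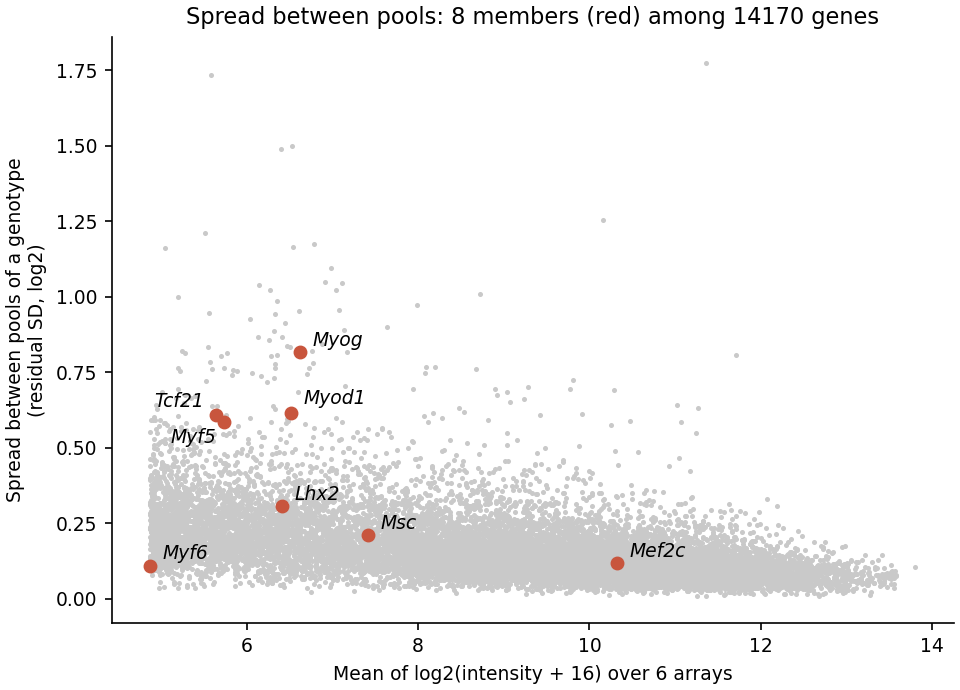
Residual SD between pools of a genotype against the mean of log2(intensity + 16), for 14170 genes (grey) and the 8 regulators (red). Myog, Myod1, Tcf21 and Myf5 sit at the upper edge of the cloud, with SDs from 0.58 to 0.82, while Myf6 and Mef2c sit within it.

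These 4 genes lay above their own means in control 2 and Mest-KO 2 and below them in control 1 and Mest-KO 1. Relative to its own mean over the 6 arrays, Myod1 was at 0.94 in control 2 and 0.32 in Mest-KO 2 and at -0.39 and -0.55 in control 1 and Mest-KO 1. Myog was at 1.01 and 0.59 in control 2 and Mest-KO 2 and at -0.52 and -1.08 in control 1 and Mest-KO 1. Control 3 and Mest-KO 3 lay near the mean for Myog and Myf5. Myod1 was at -0.33 in control 3, a low pool like control 1, and at 0.02 in Mest-KO 3. Tcf21 was at -0.51 in control 3, its lowest control, and at 0.41 in Mest-KO 3, its highest Mest-KO pool. Pools share a number by label only, since the sources used here do not tie control 2 to Mest-KO 2. In bulk tissue, fewer muscle cells and less RNA per cell cannot be told apart.

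Genes with the most similar pattern over the 6 arrays were found for the 5 members whose log2 values spanned more than 1. The measure was the root mean square difference between log2 values centred on each gene's own mean, over 14169 other genes, and it is a description with no test. For Myod1 the nearest was Synpo2l, an actin-binding protein of striated muscle (0.15), then Gpr39, a zinc-sensing receptor (0.20), and Tcf21 was the third in order. Synpo2l read 69.7, 147.8 and 68.3 in control 1, 2 and 3, against 62.8, 120.7 and 81.9 in Mest-KO. For Myog the nearest were Cuedc1 (0.17) and Myod1 (0.28). For Tcf21 the nearest were Myod1 (0.20) and Tnnt1, the slow skeletal troponin T (0.21). For Myf5 they were Chrng, a subunit of the fetal acetylcholine receptor of muscle (0.23), and Fgf5, an FGF ligand (0.23). Chrng was dim, at most 34.6, in Mest-KO 2. In control 1 it read 7.59, under the highest bacterial control, and Myf5 read 13.4, just above it. For Lhx2 they were Tecrl (0.09) and Tspan1, a tetraspanin (0.10), which were both highest in control 3, as Lhx2 was, at 76.5 and 39.9.

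**Figure D4:**
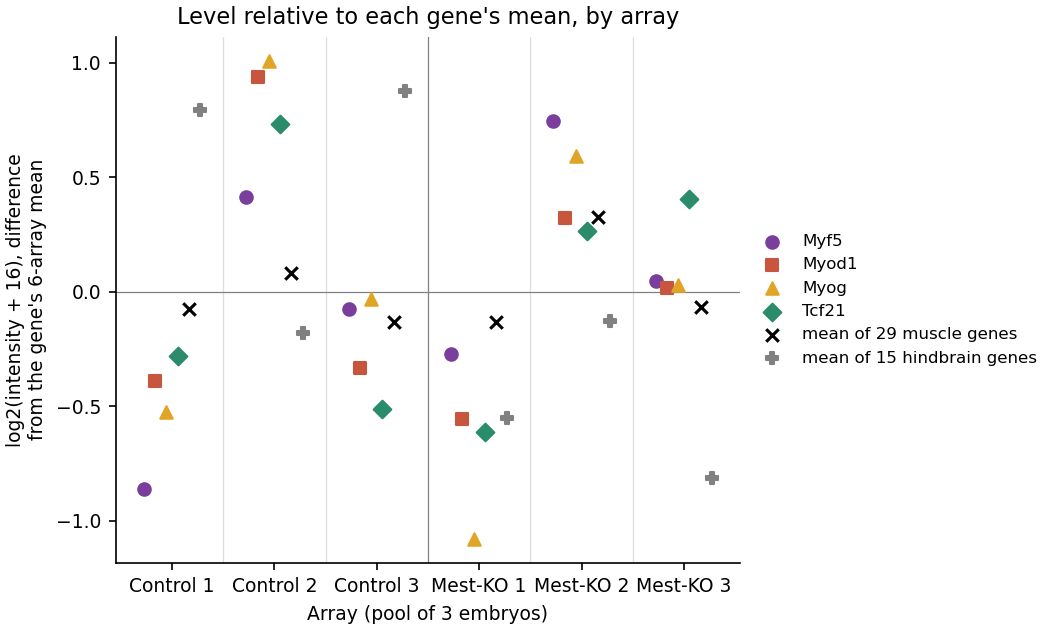
Level of Myf5, Myod1, Myog and Tcf21 on each array, as the log2 difference from the gene's mean over 6 arrays, beside the means of 29 genes of differentiated skeletal muscle and 15 genes of the hindbrain neural tube. In control 2 all 4 regulators lie above 0, at 0.41 to 1.01, and in Mest-KO 1 all 4 lie below, at -0.27 to -1.08.

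Genes of differentiated skeletal muscle, which the myogenic factors switch on, were given from a list of 38, of which 29 were tested. None passed, and 22 had a higher and 7 a lower mean in Mest-KO, where 53.8% of all genes tested were higher. Of the 29, 2 (6.90%) had an unadjusted p under 0.05 (limma), where 8.97% of all genes tested did. The median log2 difference was 0.07. The list's mean was 0.33 in Mest-KO 2 and 0.08 in control 2, and between -0.13 and -0.07 on the other 4 arrays. Of the 29 genes, 14 were highest in Mest-KO 2 and 7 in control 2, while 5 were lowest in control 2 and 0 in Mest-KO 2. Tnnt1, for example, read 305.2, 603.5 and 212.1 in control 1, 2 and 3, against 260.7, 518.4 and 368.7 in Mest-KO, and was highest in control 2 and Mest-KO 2. The 4 members with the smallest p were Ryr1, the calcium release channel of muscle (0.66 ± 0.15; limma, adjusted p = 0.165), Stac3, which couples it to excitation (0.51 ± 0.16), Myh7, the slow myosin heavy chain (-0.36 ± 0.17), and Chrng (0.40 ± 0.24). Ryr1 read 92.6, 117.5 and 125.3 in control, against 195.3, 176.6 and 182.6 in Mest-KO, and its highest pool was Mest-KO 1, where Myog was lowest.

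With the mean of these 29 genes as a covariate, a setting chosen after seeing the data, the Myog difference was -0.59 ± 0.30 and that of Myod1 -0.34 ± 0.27, and 0 of 8 regulators passed. Markers of heart muscle, another source of shared contractile genes, were low, with 4 of 10 tested and sums of 100.4 to 135.7 in control and 131.7 to 141.0 in Mest-KO.

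Other regulators of branchiomeric mesoderm were given from a list of 23, of which 18 were tested and 0 passed. The 18 include Tbx1 itself, the deleted gene, which counts among the lower ones at -0.03. There 11 were higher and 7 lower, with a median of 0.10, and 5 (27.8%) had non-overlapping groups, all higher in Mest-KO, where 14.5% of all genes tested had non-overlapping groups and 9.32% were of the higher kind. Of the 14 neuron markers, 1 of which, Isl1, is also in this list, 13 were higher and 6 had non-overlapping groups, all higher, with summed intensities of 45058 to 48917 in control and 51902 to 54822 in Mest-KO. Their part in the values of this list was not tested. Of the 18 regulators, 3 (16.7%) had an unadjusted p under 0.05 (limma), where 8.97% of all genes tested did. The members with the smallest p were Isl1, a LIM homeobox factor of pharyngeal mesoderm and also of sensory neurons (0.27 ± 0.08; limma, adjusted p = 0.310), and Eya2, a transcriptional cofactor (0.55 ± 0.17; limma, adjusted p = 0.317). They were followed by Ebf1 (0.23 ± 0.10) and Sim2 (-0.49 ± 0.23). Eya2 read 175.9, 201.8 and 201.4 in control 1, 2 and 3, against 388.1, 259.2 and 242.2 in Mest-KO. Its control pools were alike where those of Myod1 were not. Pitx1, Nkx2-5 and Fgf8 were under the filter.

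Of the genes for trunk and limb muscle progenitors, which come from somites, 14 of 17 were tested. Among these 1 rose and 0 fell, where 0.148% of all genes tested passed, and the median was -0.01. An unadjusted p under 0.05 (limma) was found for 4 of the 14 (28.6%), where 8.97% of all genes tested had one. The homeobox gene Meox1, made in paraxial mesoderm, rose from 98.8 ± 11.1 to 242.7 ± 61.4 (log2 difference 1.15 ± 0.18; limma, adjusted p = 0.0433). This call was lost in 12 of 20 alternative settings. Lbx1, a factor of migrating limb muscle precursors that hindbrain neurons also make, read 373.6, 60.6 and 409.1 in control 1, 2 and 3, against 19.0, 91.4 and 21.1 in Mest-KO. Pax7, of muscle progenitors and dorsal neural tube, read 112.7, 69.1 and 148.1 and 17.6, 92.8 and 23.9 in the same order. Both were lowest among controls in control 2, the pool where Myod1 and Myog were highest, and highest among Mest-KO pools in Mest-KO 2. Neither passed (limma, adjusted p = 0.250 and 0.336). Mesp1, also in this list, was dim, at 28.2, 35.3 and 33.8 in control 1, 2 and 3. In Mest-KO 1, 2 and 3 it read 19.3, 12.7 and 17.4. Its log2 difference was -0.58 ± 0.17 (limma, adjusted p = 0.288). Groups did not overlap for 2 of the 14 (14.3%), Meox1 higher and Mesp1 lower, where 14.5% of all genes tested did not overlap.

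Partners and inhibitors of the myogenic factors, such as E proteins, which pair with them, and Id proteins, which block that pairing, were given from a list of 29, of which 27 were tested. None passed, 14 were higher and 13 lower, and the median was 0.01. Of the 27, 4 (14.8%) had an unadjusted p under 0.05 (limma), where 8.97% of all genes tested did. The smallest p belonged to Fst, an inhibitor of activin and myostatin (-0.55 ± 0.13; limma, adjusted p = 0.175), Id2 (-0.18 ± 0.07), Mrtfb, a cofactor of SRF (-0.18 ± 0.08), and the histone deacetylase Hdac9, which binds Mef2 factors (-0.35 ± 0.15). The list's mean relative to the 6 arrays lay between -0.04 and 0.05 on every array, an average over genes with higher and with lower means in Mest-KO.

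The direction of the uncalled differences was not stable for several members. Over up to 20 alternative settings Mef2c and Myf5 stayed higher, though Myf5 came down to 0.002 without control 1. For Mef2c most settings used its brightest probe set, and the mean of all its probe sets gave 0.07. Single Mef2c probe sets also gave -0.04 and -0.01. Tcf21 changed direction in 8 of 19, Myod1 in 4 of 20 and Myog in 3 of 20. Single pools were enough for this. Without control 2 the difference was 0.29 for Myod1, 0.13 for Myog and 0.41 for Tcf21, and without Mest-KO 1 it was 0.10, 0.16 and 0.35. Tcf21 was at -0.09, -0.21, -0.08 and -0.16 without control 1, control 3, Mest-KO 2 and Mest-KO 3 in turn. Msc, Lhx2 and Myf6 each changed direction in 1 setting, with the hindbrain mean as a covariate, where they were at -0.14, 0.023 and 0.0089. Under no setting did any of the 8 genes pass over all genes, and the lowest adjusted p was 0.353 (limma), for Msc.

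**Figure D5:**
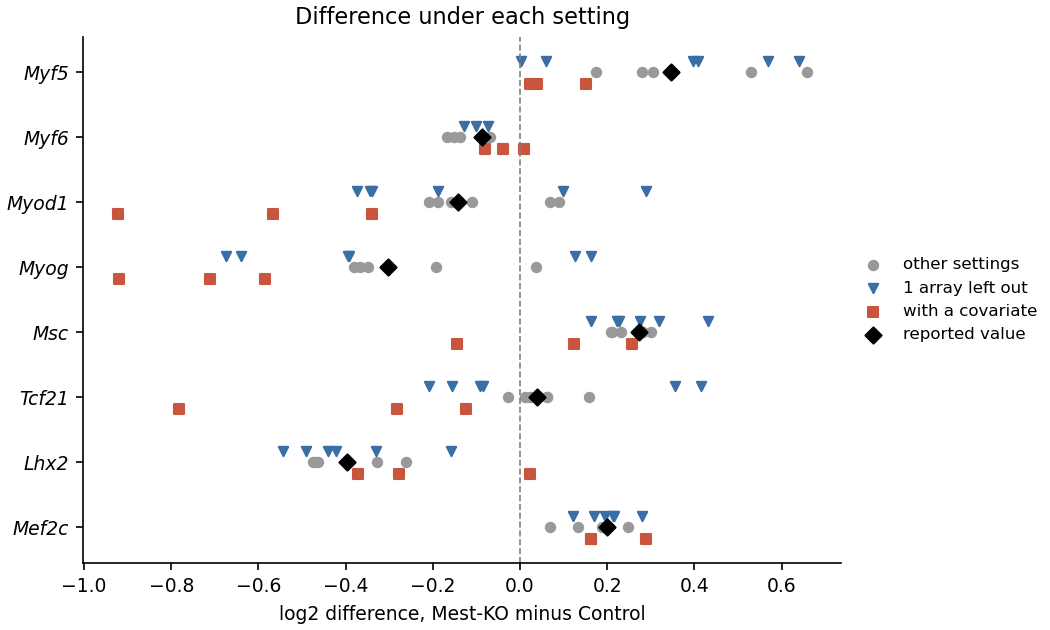
Log2 difference between Mest-KO and control for each of the 8 regulators under the reported setting (black) and each alternative, with leave-one-out and covariate settings marked. Mef2c and Myf5 lie above 0 in all, and Tcf21 lies on both sides.

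The sex markers also differed between pools. Y-linked genes, relative to their mean over the arrays, were at -0.49, 0.43 and -0.43 in control 1, 2 and 3, against 0.26, 0.23 and 0.01 in Mest-KO. With that mean as a covariate the differences were -0.57 ± 0.27 for Myod1, -0.71 ± 0.41 for Myog, -0.28 ± 0.33 for Tcf21 and 0.02 ± 0.31 for Myf5. With the hindbrain mean as a covariate they were -0.92 ± 0.46, -0.92 ± 0.67, -0.78 ± 0.46 and 0.04 ± 0.53. No member passed in either fit, with adjusted p of 0.75 or more for all 8 (limma). Control 2 stood apart from the other controls in the sex markers, the hindbrain genes and the muscle regulators, and which of these bears on the others was not tested.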

How the data were processed

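Expression was measured on 6 one-colour Affymetrix arrays, 3 of Mest-KO and 3 of control pools, grouped by title, from 300 ng of total RNA each. The submitters' processing notes name Affymetrix Expression Console 1.1, with which the authors made the deposited linear intensities. How probes were summarized and background was corrected is not given in the sources used here. After trimming 2% of probe sets at each end, every array had a mean of 500.002, so the values are scaled per array and a shift of most genes together would be hidden.

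The 64 control probe sets were left out. Symbols came from a table of the platform's annotation, checked by Entrez ID against RefSeq (GRCm38.p6), which changed 0. For each gene the probe set with the highest mean log2(intensity + 16) was used. Genes above the 30th percentile of probe sets were kept, 14170 of 18193, all 8 members among them. Genotypes were compared across all genes with limma 3.58.1 (R 4.3.3), lmFit and eBayes with trend, two-sided, Benjamini-Hochberg at 0.05. The same fit was run on single probe sets. The labels call arrays biological replicates. The fit was tested on simulated data.

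Named were Tbx1, the members, called members of each pathway list or else the 4 with the smallest p, the brightest markers and the genes of most similar pattern. Other genes and examples with values were chosen after these were seen. Some listed genes are not reported here. Members and lists were chosen with earlier results of these data known. Alternatives were normalization, pseudocounts, filters, probe-set choice, trend, array weights, a replicate block, covariates and leaving out each array. Replicate numbers are not known to pair the arrays.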

Additional observations from a re-analysis of the deposited data

How the results depend on the processing

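The count of 0 members past the threshold (limma) was the same in all 20 alternatives run, of which the muscle covariate was chosen after seeing the data. The count over all genes, 21, moved widely. It was 78 with arrays centred on their medians, 2 with no filter, 6 with the mean of all probe sets, 1 with eBayes without trend, 3 with the hindbrain covariate and 9 with the replicate number as a block, and it ran from 2 to 84 when 1 array was left out. The replicate block changed no member's call and left its difference as it was. The block lowered the standard error of Myog from 0.43 to 0.18 and of Myf5 from 0.33 to 0.19. It also lowered that of Myod1 from 0.34 to 0.21 and of Tcf21 from 0.34 to 0.27. These genes had already been seen to lie on the same side of their means in same-numbered pools. Their lower errors restate that pattern and are no test of pairing. The standard errors of Myf6, Msc, Lhx2 and Mef2c rose. Uncalled log2 differences of 6 members changed direction, and the cause was not tested. Tcf21, at 0.04 in the reported fit, was at -0.027 with arrays centred on their medians, -0.28 with the Y-linked covariate, -0.78 with the hindbrain covariate and -0.12 with the muscle covariate. The hindbrain covariate also put Msc at -0.14, Lhx2 at 0.023 and Myf6 at 0.0089. Myod1 was at 0.090 with the mean of all probe sets, and array weights put Myod1 at 0.068 and Myog at 0.037. When 1 array was left out, Tcf21 ran from -0.21 to 0.41, Myod1 from -0.37 to 0.29 and Myog from -0.68 to 0.16. The deviations of same-numbered arrays from their group means correlated at -0.03, -0.11 and -0.15 across genes. These values over all genes do not tell whether the muscle regulators pair by number, which was not tested. In the list of trunk and limb progenitors the count of 1 was 0 in 12 of 20 alternatives and 2 without control 2, where Lbx1 joined Meox1. In the list of branchiomeric regulators Pitx1 was called without Mest-KO 3. Dim signal limits Myf6 and the second probe sets of Myod1 and Tcf21.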
